A study of Mus musculus with 16 samples.

Results

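Erythroblasts of *Nprl3*-/- foetal livers were compared between an early stage, S1, and a later stage, S3, within this genotype. The libraries were chosen by their labels, as those of homozygous embryos at either stage, and number 4 of the 16 in the series, with 1 S1 and 1 S3 library from each of 2 embryos. Embryo 2 was female and embryo 9 male by labels that the study set from reads on chromosome Y, both were taken at E13.5, mid-gestation, and both carried the constitutive *Nprl3*-/- allele on both chromosomes, in which the promoter region of *Nprl3* is deleted in every cell while the α-globin enhancers inside the gene are left in place. The remaining libraries came from 4 wild-type embryos and 2 heterozygotes, and the wild-type ones are used only where a difference from them was tested. Cells were sorted from the liver by Ter119 and CD71, in the scheme that orders erythroblasts by these surface proteins, and their RNA was amplified before polyadenylated RNA was sequenced, so each library is a population and not a clone. The genotype is constitutive, so the stroma and macrophages of the same liver lacked the promoter as well, and no litter was given for the embryos.

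The foetal liver is the main site of red cell production at this age. Early erythroid progenitors divide under erythropoietin, the hormone that keeps them alive, and then fill with haemoglobin, shrink, condense the nucleus and expel it. Nprl3 is a subunit of GATOR1, the complex that holds mTORC1, the kinase that couples growth to nutrients, inactive when amino acids are scarce, and its gene lies beside the α-globin genes and holds their enhancers.

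The labels also name an embryonic stem cell line in their tissue fields. None of 9 pluripotency genes (among them *Pou5f1*, *Nanog* and *Sox2*) passed the filter on low counts, and their summed normalized count was 0 and 0.65 at S1 and 0 and 6.495 at S3. The stage labels were borne out by their markers: 7 of 9 early progenitor markers were lower at S3 and all 8 tested markers of the later stage were higher, where 30.3% and 22.6% of all genes tested were lower and higher. Library totals were 31213515 and 32395199 counts at S1 and 21375730 and 23008732 at S3, again for embryos 2 and 9, and this order of embryos is kept throughout. Globin transcripts took 0.0738% and 0.306% of the counts at S1 and 10.0% and 10.6% at S3, and the 10 most abundant genes took 4.15% to 4.49% at S1 and 17.7% to 18.2% at S3.

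More than 1 in 2 measurable genes differed between the stages. Of 13446 genes tested, 7108 (52.9%) were called at an adjusted p under 0.05, 3038 of them higher at S3 (22.6% of genes tested) and 4070 lower (30.3%). The change exceeded 1 on the log2 scale for 2379 of the genes that rose and 3405 of those that fell, and it exceeded 4 for 397 and 641. Both embryos moved the same way for 12123 genes (90.2%), among them 7106 of the 7108 called. The 2 libraries of a stage lay wholly above or below those of the other for 10491 genes (78%). The median log2 fold change of all genes tested was −0.19, against which the gene groups below are read. The split of calls moved with the scaling: 42.7% of the calls were higher at S3 after TMM scaling, 52.5% after upper-quartile scaling (median 0.06), and 18.1% on library size alone (median −0.99, with 1572 genes higher and 7117 lower). An exact permutation test of 2 libraries against 2 cannot go below p = 0.333, so p-values are from the test across all genes, and they measure the spread between 2 embryos. Counts given are normalized to the mean effective size of the 4 libraries, fold changes are S3 over S1 on the log2 scale with their standard error, and each gene said to have risen or fallen kept its call in every alternative run unless the text beside it says otherwise. In sorted populations, fewer cells of a type and less RNA per cell cannot be told apart.

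**Figure D1:**
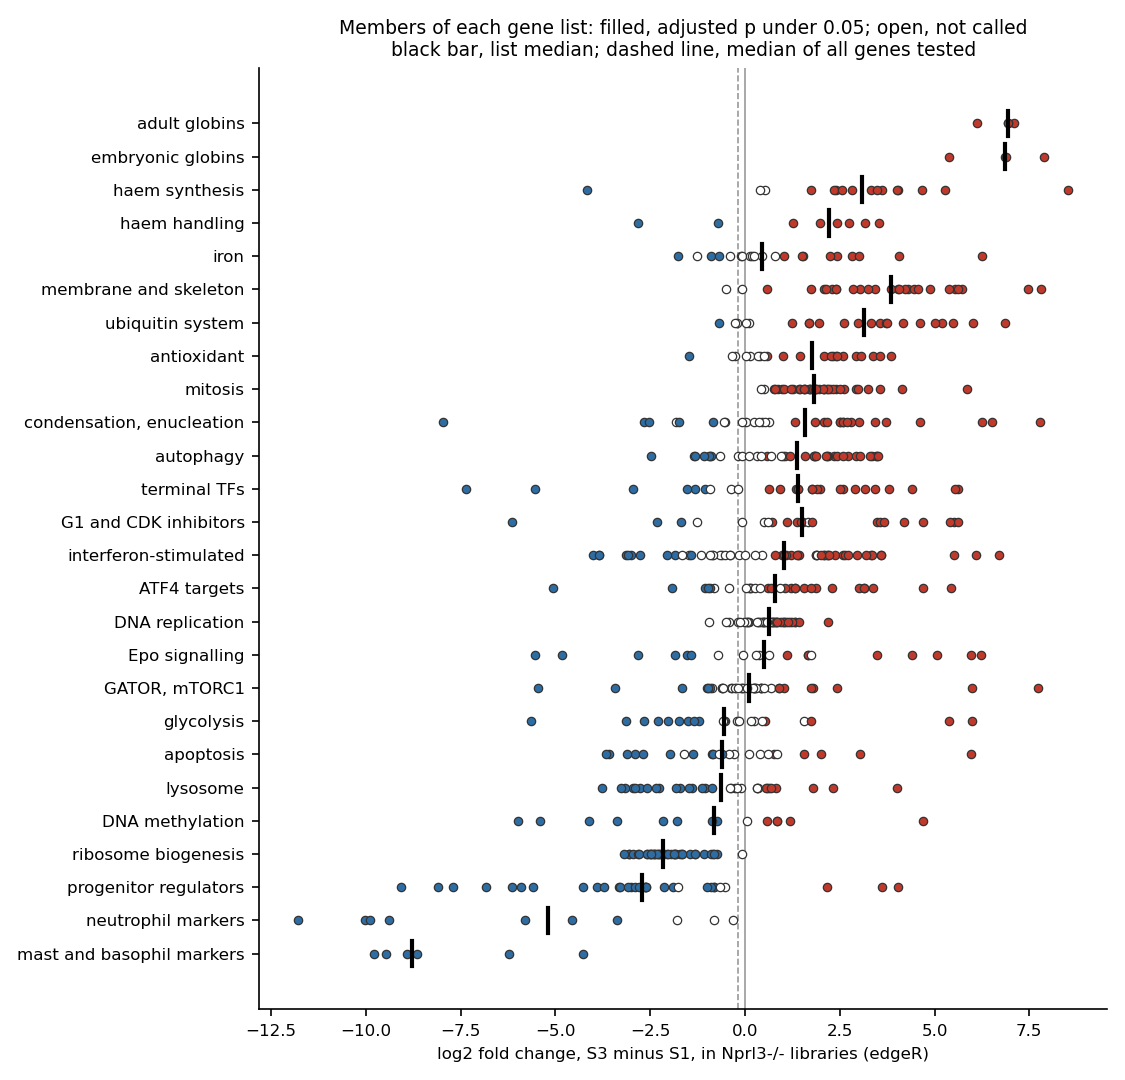
Each point is 1 gene of a list, placed by its log2 fold change of S3 over S1 in the 4 *Nprl3*-/- libraries (horizontal axis), with the lists on the vertical axis; filled points were called and open points were not, black bars are list medians and the dashed line is the median of all genes tested, −0.19; genes with 0 counts at a stage stand at their fitted value, which is no bound. Globin, haem and membrane genes lie to the right, ribosome biogenesis and progenitor genes to the left, and the nutrient-sensing list straddles 0 with *Nprl3* at its far right.

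Globin genes rose furthest as a group. *Hbb-bs*, an adult β-globin gene, had 4274 and 18064 normalized counts at S1 and 1401500 and 1355200 at S3. The S3 libraries differed by little, whereas at S1 embryo 9 held about 4 times the count of embryo 2. The log2 fold change was 6.95 ± 0.83 (adjusted p = 0.00143), and that of its neighbour *Hbb-bt* was 6.94 ± 0.78. *Hba-a1*, an adult α-globin gene, went from 9271 and 31747 to 1527500 and 1342800 counts, a log2 fold change of 6.13 ± 0.71, and *Hba-a2* from 1146 and 3498 to 288850 and 342490, 7.09 ± 0.67. These α-globin copies are near-identical and the counter by default leaves out reads that map to both, so their levels and their split are uncertain. Per kilobase of transcript, *Hbb-bs* and *Hba-a1* reached normalized counts of 1794700 and 1767400 at S3, the same order of magnitude.

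Embryonic globins, which are made mainly by the yolk sac lineage, also rose from low counts. *Hbb-y* had 15.1 and 650 counts at S1 and 38457 and 40401 at S3 (log2 fold change 6.88 ± 1.56, adjusted p = 0.0132, a call that was lost without embryo 2). Without the S1 library of embryo 9 its log2 fold change was 11.3. *Hba-x* went from 1.51 and 155 to 8536 and 9794 and *Hbb-bh1* from 47.6 and 119 to 16170 and 23843. At S1 embryo 2 had far fewer *Hbb-y* and *Hba-x* transcripts than embryo 9, and at S3 the embryos were alike in both genes. *Hbb-bh1* was higher in embryo 9 at both stages, with a smaller gap at S1. *Hbb-bh2* was seen in 2 counts at S1 and 40 at S3, a ratio of 49.96 (95% counting interval 12.96 to 427). All 4 embryonic and all 4 adult globin genes tested were called higher, where 22.6% of all genes were, with list medians of 6.87 and 6.94. Without the S1 library of embryo 9 the medians were 10.01 and 8.16, and without both libraries of that embryo 9.85 and 8.08.

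**Figure D2:**
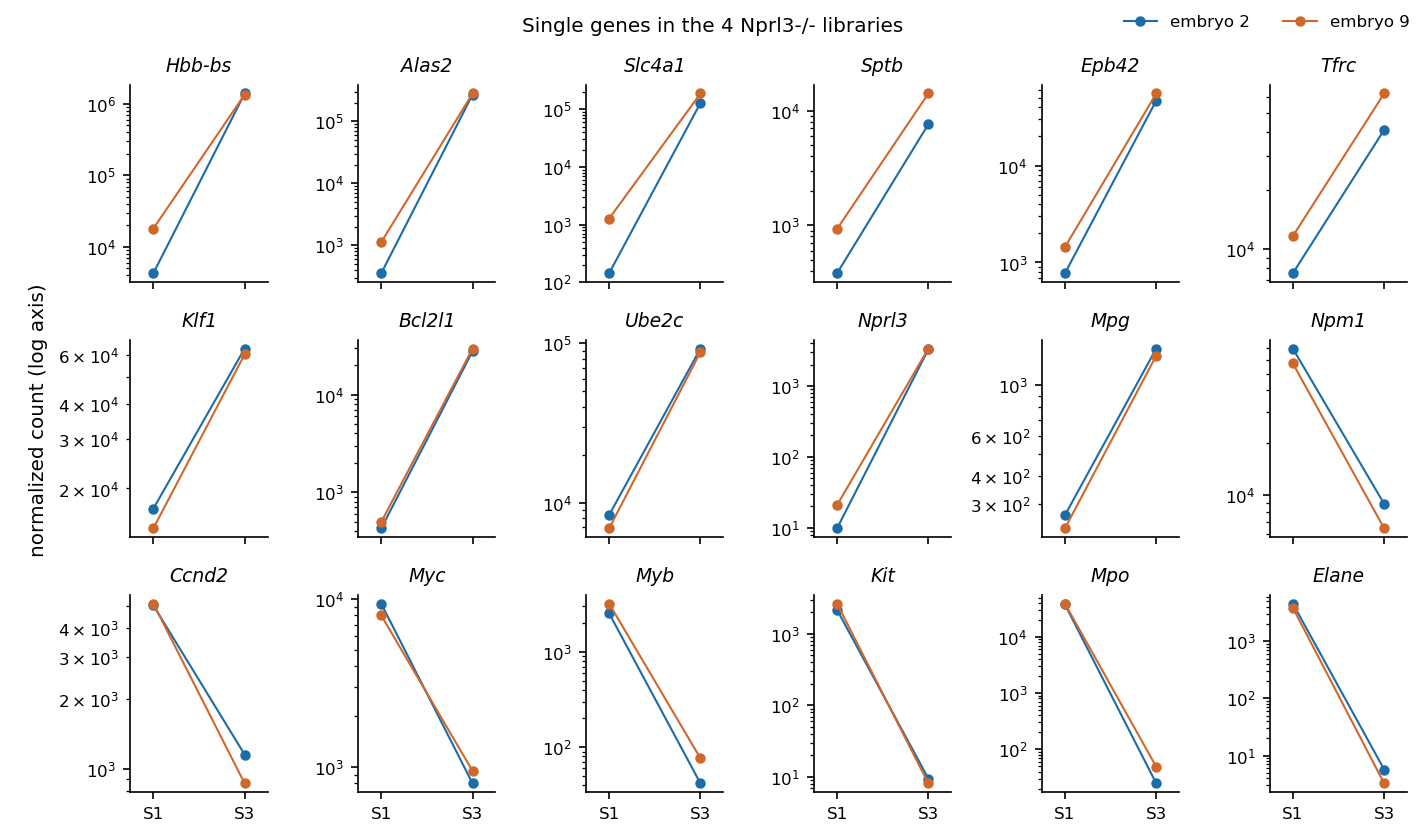
Normalized counts of 18 genes (vertical axes, logarithmic, a separate scale for each gene) at S1 and S3 in *Nprl3*-/- embryos 2 and 9, with a line joining the libraries of 1 embryo. Genes from *Hbb-bs* to *Mpg* were higher at S3 in both embryos and genes from *Npm1* to *Elane* were lower, and the embryos lay furthest apart at S1, in *Slc4a1*.

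Transcripts of haem synthesis rose at nearly every step. The first enzyme exists in a housekeeping and an erythroid form, and these moved in opposite directions. Erythroid *Alas2* went from 356 and 1128 counts to 269270 and 280630, a log2 fold change of 8.53 ± 0.71 (adjusted p = 0.000494). Housekeeping *Alas1* fell from 1921 and 2008 to 104.2 and 115 (−4.16 ± 0.19, adjusted p = 0.000221). Per kilobase, on means over the 2 embryos, *Alas1* stood at 318 and *Alas2* at 309 at S1, and at 17.8 and 114420 at S3. The S1 mean of *Alas2* covers embryos that differed widely, with the counts given above. *Alad*, which makes porphobilinogen, had a log2 fold change of 2.83 ± 0.26. *Uros*, which closes the ring, and *Urod*, which trims its side chains, had 3.33 ± 0.24 and 3.48 ± 0.21. In the mitochondrion *Cpox* gave 2.40 ± 0.21 and *Ppox* 4.04 ± 0.19. *Fech*, which inserts the iron, went from 11072 and 11439 to 296440 and 276490 counts (4.67 ± 0.24). These enzymes therefore rose by unequal amounts, *Cpox* the least of those named and *Alas2* the most. Of 16 tested genes of the list, 13 rose and only *Alas1* fell, where 22.6% and 30.3% of all genes did, with a median of 3.08. Carriers around the pathway belong to the list as well: the glycine carrier *Slc25a38* rose by 2.36, the mitochondrial transporter *Abcb10* by 4.02 and *Fam210b* by 5.28. *Clpx*, an activator of ALAS enzymes, was not called (log2 fold change 0.39 ± 0.15, adjusted p = 0.0703, or 0.00277 with the embryo as a block).

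The promoter of *Alas2* is shown because this gene had the largest rise of the pathway. It covers 250 bases before to 50 after the RefSeq start at chrX:150547167-150547466 on the plus strand of GRCm38.p6, with capitals for AGATAA (a form of the motif bound by GATA factors) and CACCC (bound by KLF factors), searched on both strands.
Alas2: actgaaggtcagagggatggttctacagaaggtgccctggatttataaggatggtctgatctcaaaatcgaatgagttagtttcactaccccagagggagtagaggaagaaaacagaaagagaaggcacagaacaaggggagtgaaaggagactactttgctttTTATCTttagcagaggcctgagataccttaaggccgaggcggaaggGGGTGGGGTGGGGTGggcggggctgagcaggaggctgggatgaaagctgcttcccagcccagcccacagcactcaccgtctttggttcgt
It holds 1 AGATAA, on the opposite strand 86 bases before the start, and 3 CACCC on the opposite strand between 40 and 30 bases before it. Of 32851 promoters in the table, 11.2% held AGATAA and 57.5% held CACCC, beside 6.51% and 62% of the tested genes with a promoter there. Among the 13 haem synthesis genes with a promoter these were 2 (15.4%) and 11 (84.6%).

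**Figure D3:**
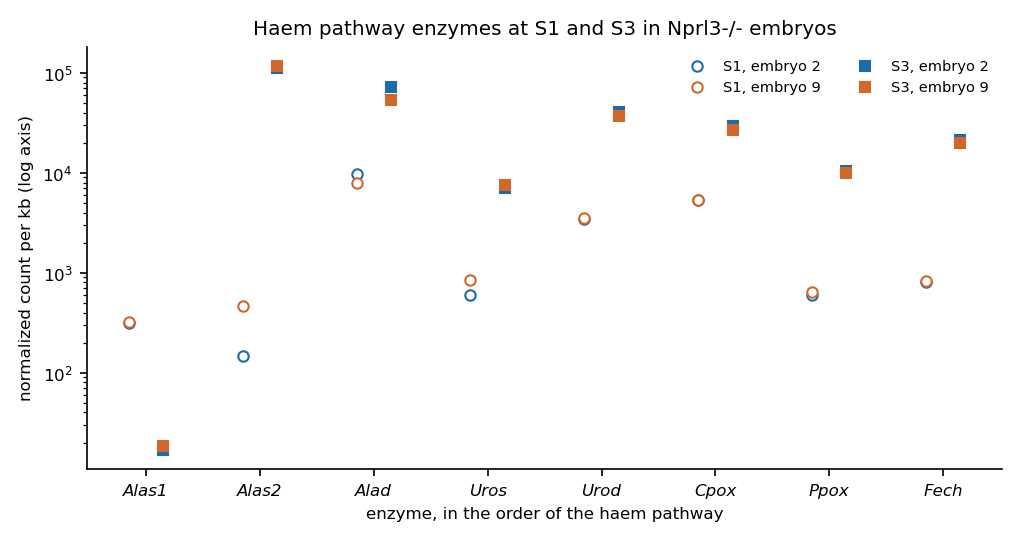
Normalized counts per kilobase of transcript (vertical axis, logarithmic) of 8 haem pathway enzymes in pathway order (horizontal axis), with open circles for S1, filled squares for S3 and colour for the embryo. *Alas1* is the only one of them below its S1 level at S3, and *Alas2* rises from 309 to 114420 on average.

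Genes that sense, move and break down haem mostly rose. *Eif2ak1*, the haem-regulated kinase that slows translation when haem is short, went from 3234 and 3758 to 38895 and 41584 counts (3.52 ± 0.20). *Slc48a1*, a haem importer of endosomes, rose by 2.75 ± 0.18, and *Blvrb*, a biliverdin reductase abundant in red cells, by 3.16 ± 0.23. *Hmox1*, inducible haem oxygenase, rose by 2.42 ± 0.36, a call lost without embryo 2. *Flvcr1*, the haem exporter, moved the other way, from 694 and 751 to 94.8 and 109 counts (−2.83 ± 0.23). In all, 6 of 8 tested members rose and 2 fell, where 22.6% and 30.3% of all genes did. The other that fell was *Hmox2* (−0.72 ± 0.20). Its call was lost without either embryo, after upper-quartile scaling and with all 16 libraries in the fit, each taken alone. It was also lost without the S1 library of embryo 2 or the S3 library of embryo 9.

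Iron genes moved in both directions. *Slc25a37*, mitoferrin, which carries iron into the mitochondrion, went from 454 and 1162 to 49154 and 75035 counts (6.26 ± 0.58, adjusted p = 0.000651). *Tfrc*, the transferrin receptor, encodes CD71, on which the cells were sorted, so its rise of 2.43 ± 0.33, from 7537 and 11680 to 40794 and 62623 counts, is not independent of the gate. *Ncoa4*, the receptor that delivers ferritin for breakdown, rose by 4.07 ± 0.20, and the ferritin chains *Fth1* and *Ftl1* by 2.82 ± 0.29 and 3.02 ± 0.41. *Slc11a2*, which moves iron out of endosomes, rose by 1.53, and *Glrx5* and *Iscu*, of iron-sulphur cluster assembly, by 2.23 and 1.505. *Aco1*, the iron-regulatory protein that doubles as an aconitase, fell from 904 and 927 to 286 and 255 counts (−1.76 ± 0.19). Its partner *Ireb2* was not called (log2 fold change 0.13 ± 0.41, adjusted p = 0.804). Of 21 tested members, 9 rose and 3 fell (57.1% called, beside 52.9% of all genes; median 0.45), a split that became 8 and 9 with a median of −0.36 on library size alone. Without embryo 9 the members that fell numbered 1.

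Genes of the red cell membrane and of the skeleton beneath it rose almost without exception. *Slc4a1*, band 3, the anion exchanger that anchors the skeleton, went from 143 and 1271 to 129140 and 188550 counts (7.81 ± 1.18, adjusted p = 0.00316). At S1 embryo 9 had almost 9 times the count of embryo 2, and the stages were far apart in both. *Epb42*, protein 4.2, which binds band 3, went from 774 and 1441 to 46804 and 55334 (5.53 ± 0.39). *Sptb*, a spectrin chain of the lattice, went from 382 and 930 to 7607 and 14091 (4.05 ± 0.54). Proteins that join the lattice to actin or to the membrane rose as well: ankyrin *Ank1* by 3.02, *Epb41* by 3.84, dematin *Dmtn* by 5.61, tropomodulin *Tmod1* by 4.87 and adducin *Add2* by 2.41. Among blood group and surface proteins, *Kel* rose by 4.46, *Rhd* by 4.22 and *Rhag* by 2.84. *Slc2a4*, a glucose transporter on this list, went from 5.29 and 19.6 to 1893 and 2621 counts (7.46 ± 0.54). Of 27 tested members 25 rose and none was called lower, by edgeR or by DESeq2, with a median of 3.84. Over all genes tested, 22.6% rose and 30.3% fell. With the embryo as a block 1 member was lower, and on library size alone 2 were. The water channel *Aqp1* was not called (log2 fold change −0.09 ± 0.24, adjusted p = 0.779).

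*Epb42* is printed for this group, from chr2:121036828-121037127 on the minus strand of GRCm38.p6, with capitals for AGATAA and for TTTGAA (the core of the cell cycle element CHR), both on the opposite strand.
Epb42: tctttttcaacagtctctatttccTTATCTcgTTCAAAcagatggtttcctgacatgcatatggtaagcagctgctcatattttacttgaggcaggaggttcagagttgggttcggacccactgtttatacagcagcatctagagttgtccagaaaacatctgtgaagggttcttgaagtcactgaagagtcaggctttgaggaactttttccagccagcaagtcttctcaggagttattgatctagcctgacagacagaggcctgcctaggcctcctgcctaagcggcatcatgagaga
AGATAA was held by 5 of the 19 membrane and skeleton genes with a promoter in the table (26.3%) and by 12.8% of the 250 genes with a promoter that rose by over 4, beside 6.51% of all tested genes with a promoter. CACCC was held by 15 of the 19 (78.9%) and by 62% of all tested genes with a promoter. These letter matches are descriptions of the windows, with no test of binding.

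Most of the erythroid transcription factors and cofactors tested rose, by amounts that ranged widely. *Gata1*, the master regulator of the lineage, had 10487 and 9033 counts at S1 and 27151 and 22768 at S3 (1.35 ± 0.19). *Klf1*, which drives adult β-globin, went from 16934 and 14409 to 63209 and 60327 (1.98 ± 0.20) and had the highest level per kilobase of the list at S3, 40266. *Tal1* rose by 1.89 and its partner *Lmo2* by 1.76, while *Ldb1*, which bridges that complex, fell by 1.05. *Nfe2* went from 3621 and 3372 to 47083 and 49791 counts (3.79 ± 0.19), and the small Maf partners with which it binds DNA, *Mafg* and *Mafk*, rose by 2.89 and 2.50. The largest rises of the list were in *E2f2*, a cell cycle factor, from 253 and 416 to 14970 and 17850 (5.61 ± 0.33), and *Mxd1*, which opposes Myc, from 239 and 393 to 13183 and 16267 (5.54 ± 0.33). *Foxo3*, which turns on antioxidant genes, rose by 3.43 and *Hemgn* by 4.41. Among those that fell were *Bcl11a*, a repressor of embryonic globin genes, by 1.33, and the pair that carries the erythropoietin signal, *Stat5a* by 5.54 (from 1594 and 1860 to 20.8 and 52.0 counts) and *Stat5b* by 1.54. *Ikzf3* had 18.9 and 21.5 counts at S1 and 0 in both S3 libraries, and its call was lost without either embryo. In all 18 of 27 tested members rose and 6 fell, where 22.6% and 30.3% of all genes did, with a median of 1.41.

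Regulators of progenitors fell in their majority, and 3 rose. *Kit*, the receptor for stem cell factor, fell from 2173 and 2652 to 9.48 and 8.12 counts (−8.09 ± 0.28, adjusted p = 0.000221), a 274-fold difference of the means. *Myb* fell from 2532 and 3201 to 41.7 and 76.3 (−5.58 ± 0.33) and *Myc* from 9416 and 8018 to 798 and 947 (−3.32 ± 0.20). All 3 were many times lower in both embryos. *Gata2*, which Gata1 displaces as cells mature, fell by 4.27 and the kinase *Cdk6* by 6.14. The myeloid regulators *Spi1* and *Fli1* fell by 3.01 and 3.30. *Flt3* and *Il3ra*, receptors of early progenitors, had 0 counts in every S3 library. At S1 *Flt3* had 98.2 and 35.9 and *Il3ra* 30.2 and 21.5, so that against a floor of 3 counts over the stage they were at least 24.7-fold and 9.74-fold lower at S3. Genes of the foetal RNA-binding programme fell by less, *Igf2bp1* by 2.90 and *Igf2bp3* by 2.80. The exceptions were *Sox6*, which helps to silence embryonic globin genes and went from 265 and 451 to 4922 and 6920 counts (4.05 ± 0.34), *Lyl1* (2.17 ± 0.20) and the cytokine receptor chain *Csf2rb2* (3.62 ± 0.73). Of 32 tested members 25 fell, where 30.3% of all genes did, and the median was −2.72. Markers of mast cells, basophils and neutrophils, which share some of these regulators, were present at S1 and nearly absent at S3, with sums given with the largest falls, and their part in these falls was not tested.

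The promoter of *Kit* is shown beside these values, from chr5:75574737-75575036 on the plus strand of GRCm38.p6, the lower of the 2 windows that the table lists for the gene.
Kit: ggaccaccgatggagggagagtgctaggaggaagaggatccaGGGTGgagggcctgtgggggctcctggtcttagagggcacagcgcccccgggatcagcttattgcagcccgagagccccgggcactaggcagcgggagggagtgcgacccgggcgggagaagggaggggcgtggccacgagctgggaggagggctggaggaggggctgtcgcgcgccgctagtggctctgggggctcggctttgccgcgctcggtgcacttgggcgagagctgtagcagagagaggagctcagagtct
The capitals are its single CACCC, on the opposite strand 208 bases before the start, and it holds no AGATAA in this window. Of the 451 genes with a promoter that fell by over 4, 67.6% held CACCC and 9.31% held AGATAA, beside 62% and 6.51% of all tested genes with a promoter.

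Erythropoietin signalling changed in composition. The receptor *Epor* rose from 5124 and 5334 to 15535 and 17413 counts (1.66 ± 0.17), while *Stat5a* fell as given above. Feedback inhibitors that Stat5 induces were among the largest rises of the list: *Socs3* went from 9.07 and 16.3 to 895 and 1028 counts (6.21 ± 0.35) and *Cish* from 55.2 and 67.2 to 1986 and 2134 (5.07 ± 0.21). *Pim1*, a survival kinase, rose by 4.41 ± 0.24. *Erfe*, the hormone by which erythroblasts lower hepcidin, went from 59.7 and 73.7 to 705 and 778 (3.47 ± 0.25). *Bcl2l1*, the anti-apoptotic Bcl-xL, went from 426 and 494 to 27793 and 29570 (5.96 ± 0.22). For each of these genes both S3 libraries were above both S1 libraries. In the other direction, the phosphatase *Ptpn6*, which ends signalling from the receptor, fell from 2811 and 2108 to 119 and 56.8 (−4.81 ± 0.39), and *Sh2b3*, an inhibitor of Jak2, fell by 1.42. *Jak2* itself had a log2 fold change of 1.67 ± 0.33 (adjusted p = 0.00819), a call that library size alone removed. Of 20 tested members 8 rose and 6 fell, where 22.6% and 30.3% of all genes did, with a median of 0.50, which was −0.30 on library size alone.

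Mitotic genes rose in 38 of 40 cases. *Ube2c*, which tags cyclins for destruction, went from 8356 and 6891 to 92842 and 88308 counts (3.57 ± 0.22, adjusted p = 0.00028) and had the highest level per kilobase of the list at S3. *Cdc25b*, the phosphatase that triggers entry into mitosis, went from 357 and 721 to 26177 and 35964 (5.85 ± 0.44). Spindle genes followed, with *Nusap1* up by 4.14 ± 0.20, *Prc1* by 2.97, *Kif11* by 2.41 and *Tpx2* by 2.05. Among the kinases and cyclins of mitosis, *Cdk1* rose by 1.81, *Ccnb1* by 1.86, *Aurka* by 2.24 and *Plk1* by 1.41. The condensin subunits *Smc2* and *Smc4*, which compact chromosomes, rose by 1.55 and 1.88. Of 40 tested members 38 were called higher and none lower, where 22.6% and 30.3% of all genes were, with a median of 1.83. The 2 left were the checkpoint gene *Mad2l1* (log2 fold change 0.51 ± 0.18, adjusted p = 0.0525, or 0.000238 with the embryo as a block) and *Cdc20* (log2 fold change 0.41 ± 0.16, adjusted p = 0.0814, or 0.00125 with the embryo as a block), which turned to −0.39 on library size alone.

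The *Ube2c* promoter carries the letters most shared by this group, and it is given from chr2:164769679-164769978 on the plus strand of GRCm38.p6.
Ube2c: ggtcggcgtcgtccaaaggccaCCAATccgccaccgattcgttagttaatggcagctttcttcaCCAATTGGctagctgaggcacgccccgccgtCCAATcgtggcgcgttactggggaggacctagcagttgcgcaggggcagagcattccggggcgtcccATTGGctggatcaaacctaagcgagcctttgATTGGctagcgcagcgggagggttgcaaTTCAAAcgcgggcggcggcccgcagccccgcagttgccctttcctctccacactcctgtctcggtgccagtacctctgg
Capitals mark 6 CCAAT (a box bound by NF-Y), 3 on each strand, with a pair that overlap as CCAATTGG, and 1 TTTGAA on the opposite strand 29 bases before the start. CCAAT was held by 26 of the 33 mitosis genes with a promoter (78.8%) and TTTGAA by 25 (75.8%), beside 39.6% and 12.3% of all tested genes with a promoter.

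DNA replication genes moved less. *Rrm2*, the regulated subunit of the enzyme that makes deoxynucleotides, went from 33582 and 26475 to 159600 and 114140 counts (2.19 ± 0.27), and *Tyms*, which makes thymidylate, rose by 1.41 ± 0.24. *Lig1*, which joins Okazaki fragments, rose by 1.33 and the *Gins4* subunit of the helicase complex by 1.31. The clamp *Pcna* had 13186 and 13110 counts at S1 and 27907 and 25543 at S3 (1.02 ± 0.17), a call that library size alone removed. Of 42 tested members 23 rose and none fell, where 22.6% and 30.3% of all genes did (median 0.64), counts that depend on settings: on library size alone 4 rose and 10 fell. Those that rose numbered 13 without the S1 library of embryo 9, 14 without the S3 library of embryo 2 and 11 without embryo 2, and 3 fell with the embryo as a block. Without either S1 library or without the S3 library of embryo 9, 1 fell. GCGGGAA, a form of the E2F site, was held by 14 of the 34 promoters of this list (41.2%), beside 8.81% of all tested genes with a promoter.

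Genes that control entry into the cell cycle, inhibitors and drivers, were taken as 1 list. Of its inhibitors *Cdkn2d*, p19, went from 407 and 455 to 20633 and 18572 counts (5.51 ± 0.21). *Cdkn1b*, p27, rose by 3.48 ± 0.62 and *Cdkn2c*, p18, by 4.21 ± 0.32. The D-type cyclins, which start the cycle with Cdk4 or Cdk6, were exchanged: *Ccnd3* rose from 5245 and 5902 to 70088 and 60571 counts (3.55 ± 0.21) and *Ccnd2* fell from 5014 and 5102 to 1150 and 865 (−2.33 ± 0.20). *Cdk4* fell by 1.69 beside *Cdk6*. *Rb1*, the pocket protein that holds back E2F, rose by 3.66, and the antiproliferative *Btg2* by 5.41. Of 22 tested members, inhibitors and cyclins together, 14 rose and 3 fell, where 22.6% and 30.3% of all genes did, with a median of 1.51; 5 fell on library size alone.

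Ribosome biogenesis genes fell almost as a whole. *Npm1*, a nucleolar chaperone, went from 69726 and 57280 to 8887 and 6425 counts (−3.05 ± 0.26, adjusted p = 0.000501), and nucleolin, *Ncl*, from 61689 and 56511 to 14313 and 11482 (−2.20 ± 0.21). *Nat10*, which acetylates ribosomal RNA, fell by 3.19 ± 0.18, the most of the list. Subunits of RNA polymerase I, which transcribes the ribosomal RNA, fell by 1.81 (*Polr1a*) and 2.80 (*Polr1b*), and fibrillarin, *Fbl*, which methylates it, by 1.71. Of 40 tested members 39 fell and none rose, where 30.3% of all genes fell, with a median of −2.17. The member left was *Ubtf*, a polymerase I factor (log2 fold change −0.07 ± 0.16, adjusted p = 0.721). The counts of genes that fell stayed between 36 and 40 over the alternatives.

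Single transcripts for glucose use changed in both directions. *Slc2a1*, the glucose transporter of red cells, rose from 1628 and 2400 to 73547 and 94418 counts (5.38 ± 0.32). *Bpgm*, which makes 2,3-bisphosphoglycerate, the molecule that lowers the oxygen affinity of haemoglobin, went from 1016 and 994 to 71514 and 55393 (5.98 ± 0.25). Among hexokinases *Hk2* fell from 526 and 463 to 13.3 and 6.495 counts (−5.65 ± 0.39). At the last step *Pkm* fell by 2.65 ± 0.37, from 27642 and 19125 to 4869 and 2580, and the red cell form *Pklr* rose by 1.74 ± 0.17, from 2052 and 2438 to 7431 and 7568. *Ldha*, lactate dehydrogenase, fell by 2.04 and *Gpi1* by 1.74. Of 23 tested members 4 rose and 9 fell (56.5% called, beside 52.9% of all genes; median −0.55), a share near that of all genes, with 16 falling on library size alone. *Gapdh* was not called (log2 fold change −0.16 ± 0.29, adjusted p = 0.674).

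Targets of ATF4, the factor that the integrated stress response and mTORC1 raise, rose more often than they fell after TMM scaling. *Ppp1r15a*, which ends the stress response by removing phosphate from eIF2α, went from 982 and 1140 to 43575 and 48925 counts (5.45 ± 0.22). *Trib3* and *Chac1*, late targets, rose by 3.00 ± 0.29 and 3.15 ± 0.29, and *Ddit3*, CHOP, by 2.30 ± 0.18. Against this, the serine synthesis enzyme *Phgdh* fell from 16201 and 13471 to 8155 and 6044 counts (−1.06 ± 0.22) and *Psat1* from 14643 and 13616 to 4406 and 2996 (−1.93 ± 0.24). The third enzyme of that path, *Psph*, was not called (log2 fold change 0.13 ± 0.20, adjusted p = 0.606). *Stc2* fell from 153 and 93.3 to 7.58 and 0 counts, by 5.07, a size that rests on the S3 library of embryo 2, since it was −10.16 without it and −4.003 without that of embryo 9. *Asns*, asparagine synthetase, had the highest level per kilobase of the list at S3 and a log2 fold change of 1.06 ± 0.24, and *Atf4* itself had 1.22 ± 0.25, both calls that library size alone removed. Of 30 tested members 16 rose and 5 fell, where 22.6% and 30.3% of all genes did (median 0.80). On library size alone these were 10 and 10, and without either embryo 3 fell.

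Amino acid transporters also moved in both directions. *Slc6a9*, the glycine transporter that feeds haem synthesis, rose from 119 and 206 to 3976 and 4405 counts (4.68 ± 0.31). *Slc1a5*, for glutamine, rose by 3.39 ± 0.18, *Slc7a11*, for cystine, by 3.13 ± 0.27, and *Slc43a1*, for large neutral amino acids, by 3.87 ± 0.21. *Slc38a1*, another glutamine carrier, fell from 4293 and 5126 to 824 and 710 (−2.62 ± 0.19). *Slc7a6* fell by 2.01 and the taurine carrier *Slc6a6* by 2.00. Of 23 tested members 9 rose and 6 fell, where 22.6% and 30.3% of all genes did, with a median of 0.15 that was −0.67 on library size alone, where 10 fell. The median was −0.13 without the S1 library of embryo 2.

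Genes of nutrient sensing upstream of mTORC1 had a median near 0, with a few large changes. The Rag GTPases, which recruit mTORC1 to the lysosome, went in opposite directions: *Rragd* rose from 3.78 and 11.7 to 504 and 510 counts (5.98 ± 0.50), while *Rragb* had 340 counts over the S1 libraries and 3 over the S3 libraries, a ratio of 45.4 (95% counting interval 15.4 to 221). *Sesn1*, a leucine sensor, rose by 2.43 ± 0.16. *Deptor*, an inhibitor of mTOR, fell from 313 and 314 to 37.9 and 21.1 counts (−3.42 ± 0.37). *Mtor* had 225 and 303 counts at S1 and 508 and 575 at S3 (1.03 ± 0.25, adjusted p = 0.0156), and its call was lost without embryo 2, without the S1 library of that embryo and on library size alone. The partners of Nprl3 in GATOR1 were not called: *Nprl2* had 1077 and 894 counts at S1 and 711 and 596 at S3 (log2 fold change −0.59 ± 0.20, adjusted p = 0.0503, or 0.00157 with the embryo as a block) and *Depdc5* had 195 and 271 counts at S1 and 282 and 346 at S3 (log2 fold change 0.43 ± 0.28, adjusted p = 0.239). Among GATOR2 subunits, which oppose GATOR1, *Wdr59* fell by 1.66 (a call lost without embryo 2, without its S3 library and without the S1 library of embryo 9), and *Mios* (log2 fold change −0.37 ± 0.15, adjusted p = 0.0846, or 0.00545 with the embryo as a block) and *Wdr24* (log2 fold change −0.35 ± 0.17, adjusted p = 0.13, or 0.0258 with the embryo as a block) were not called. The *Nprl3* counts come from an allele without its promoter and are described with its locus below. Of 41 tested members 8 rose, *Nprl3* included, and 6 fell (34.1% called, beside 52.9% of all genes), with a median of 0.11. With the embryo as a block 13 rose and 11 fell, and on library size alone 3 and 24, with a median of −0.69. Those that fell numbered 2 without embryo 2 and 3 without embryo 9.

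Autophagy genes rose more often than they fell. *Bnip3l*, the receptor that marks mitochondria for removal from maturing red cells, went from 6071 and 6774 to 53524 and 52236 counts (3.04 ± 0.19). *Ulk1*, the kinase that starts autophagy and that mTORC1 inhibits, rose by 2.73 ± 0.44, from 168 and 329 to 1162 and 2138. Of the ubiquitin-like proteins that coat the autophagosome, *Map1lc3b* rose by 2.58 and *Gabarapl2* by 3.30, and of the proteases that process them *Atg4a* and *Atg4d* by 3.44 and 3.47. *Pink1*, a kinase of damaged mitochondria, rose by 3.51 ± 0.35. Of the conjugation system, *Atg10* and *Atg5* moved the other way, by −2.48 ± 0.38 and −0.96 ± 0.21. Of 38 tested members 23 rose and 6 fell, where 22.6% and 30.3% of all genes did (median 1.38). On library size alone 11 fell, and 3 after upper-quartile scaling.

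Genes of the lysosome fell in 16 cases of 32. Among its hydrolases *Neu1*, a sialidase, fell from 564 and 603 to 39.8 and 45.5 counts (−3.77 ± 0.26), *Hexa* by 3.15 and *Gaa*, which breaks down glycogen, by 2.95. *Tfeb*, the factor that drives lysosomal genes, fell by 2.33 ± 0.43. *Ctsb*, cathepsin B, rose from 7294 and 8337 to 133570 and 120230 (4.02 ± 0.23), and *Ctsd* by 1.79. Of 32 tested members 16 fell and 7 rose, where 30.3% and 22.6% of all genes did (median −0.63). Those that rose numbered 3 without embryo 2, without its S1 library or on library size alone, and 4 without embryo 9 or its S1 library.

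Genes of nuclear condensation and expulsion mostly rose. *Xpo7*, a nuclear exporter, went from 426 and 600 to 31316 and 46421 counts (6.24 ± 0.35), *Tmcc2* from 499 and 1314 to 190560 and 207090 (7.78 ± 0.60) and *Tent5c*, a poly(A) polymerase, from 166 and 325 to 19591 and 25063 (6.503 ± 0.42). Each of these was over 60 times higher at S3 in both embryos. *Riok3*, a kinase needed for enucleation, rose by 2.79, *Trim58*, a ubiquitin ligase, by 3.72, and *Plek2* by 4.62. Of the lamins, which line the nucleus, *Lmnb2* fell from 959 and 883 to 140 and 149 counts (−2.67 ± 0.21), *Lmna* rose by 2.51 and *Lmnb1* was not called (log2 fold change −0.07 ± 0.22, adjusted p = 0.82). *Rhob* had 33.2 and 28.7 counts at S1 and 0 in both S3 libraries, at least 11.7-fold lower against 3 counts. Over all genes tested, 22.6% rose and 30.3% fell. Of 32 tested members 17 rose and 5 fell (median 1.58); 8 fell with the embryo as a block, 12 on library size alone and 3 without embryo 2.

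Genes of the ubiquitin system that reshapes the late erythroblast mostly rose. *Ube2l6*, a conjugating enzyme that also carries Isg15, went from 4644 and 3571 to 166260 and 132210 counts (5.18 ± 0.29). *Ube2o*, which clears ribosomal and unpaired globin proteins, rose by 5.50 ± 0.30, *Ube2h* by 5.00 ± 0.23 and the ligase *Trim10* by 6.87 ± 0.50. Parts of the CTLH ligase rose unequally, *Ypel5* by 6.01, *Ranbp10* by 4.62, *Wdr26* by 3.32 and *Gid8* by 2.99, while *Maea* and *Armc8* were not called (log2 fold change −0.22 ± 0.16, adjusted p = 0.287, and log2 fold change 0.04 ± 0.16, adjusted p = 0.863). Of 22 tested members 17 rose and 1 fell, where 22.6% and 30.3% of all genes did, with a median of 3.15. The call of the member that fell, *Rmnd5b*, was lost without either embryo, without the S1 library of embryo 2 or the S3 library of embryo 9 and after upper-quartile scaling, and 5 fell on library size alone.

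Apoptosis genes moved in both directions. *Bid*, which links death receptors to the mitochondrion, fell from 3484 and 2672 to 443 and 378 counts (−2.91 ± 0.21). *Bcl2l1* rose as given above, and *Mcl1*, another protective member, by 1.55 ± 0.20. *Trp53* fell by 1.37, while its target *Bbc3*, PUMA, rose by 2.01. Of 23 tested members 5 rose and 10 fell, where 22.6% and 30.3% of all genes did (median −0.60), with 8 rising with the embryo as a block, 6 falling without embryo 9, and 8 rising and 6 falling after upper-quartile scaling.

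The de novo DNA methyltransferases *Dnmt3a* and *Dnmt3b* fell by 3.37 ± 0.56 and 5.41 ± 0.31, *Dnmt3b* from 1046 and 987 to 30.3 and 17.9 counts. *Dnmt1*, which copies methylation at replication, had a log2 fold change of 0.85 ± 0.18 (adjusted p = 0.0108), a call lost without either embryo and on library size alone. Among the oxidases that start demethylation, *Tet1* had 183 counts over S1 and 1 over S3 (ratio 73.3, 95% counting interval 12.99 to 2909), *Tet2* fell by 2.16 (a call lost without embryo 9) and *Tet3* was not called (log2 fold change 0.05 ± 0.32, adjusted p = 0.905). *Gadd45a* went from 598 and 637 to 16587 and 15569 counts (4.70 ± 0.19). Of 14 tested members 5 rose and 8 fell, where 22.6% and 30.3% of all genes did (median −0.81). Without embryo 9 these were 3 and 4, without embryo 2 those that rose were 3, and on library size alone 1 rose.

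Antioxidant genes mostly rose. *Gpx1*, glutathione peroxidase, went from 79886 and 63831 to 795060 and 702100 counts (3.38 ± 0.28) and *Prdx2*, a peroxiredoxin of red cells, from 38655 and 33835 to 468290 and 382940 (3.55 ± 0.26). *Cat*, catalase, rose by 3.07 ± 0.22, and *Srxn1*, which repairs oxidised peroxiredoxins, by 3.86 ± 0.26. Both subunits of the enzyme that starts glutathione synthesis rose, *Gclc* by 2.09 and *Gclm* by 2.33. *Prdx5* fell by 1.47. Of 22 tested members 14 rose and 1 fell, where 22.6% and 30.3% of all genes did (median 1.77). With the embryo as a block 3 fell, and 5 on library size alone. The superoxide dismutases *Sod1* (log2 fold change 0.35 ± 0.16, adjusted p = 0.111, or 0.00643 with the embryo as a block) and *Sod2* (log2 fold change 0.04 ± 0.21, adjusted p = 0.886) were not called.

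Interferon-stimulated genes were nearly all higher in embryo 2 than in embryo 9. *Isg15*, a ubiquitin-like modifier, had 557 and 170 counts at S1 and 34629 and 14797 at S3 (6.09 ± 0.77). *Rsad2*, viperin, went from 55.9 and 68.5 to 8490 and 4546 (6.71 ± 0.41) and *Ifit1* from 77.1 and 29.4 to 3641 and 1171 (5.51 ± 0.75). For *Isg15* embryo 2 held over 2 times the count of embryo 9 at both stages, and both S3 libraries were far above S1. *Irf7*, a transcription factor of the response, rose by 3.34 ± 0.55. Of the members that fell, *Psmb9*, of the immunoproteasome, did so by 3.09 (a call lost without either embryo), and *Tap1*, the peptide transporter of antigen presentation, by 3.84 ± 0.76, from 419 and 205 to 37.9 and 6.495 counts. *Lgals3bp* fell by 3.14. Of 55 tested members 28 rose and 11 fell, where 22.6% and 30.3% of all genes did (median 1.02). Embryo 9 was the higher of the embryos for only 6 of the 55 at S1 and 1 at S3, against 48.2% and 46.5% of all genes tested. The members that fell numbered 17 with the embryo as a block, 3 without embryo 2 and 5 without embryo 9, and 16 rose on library size alone.

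The genes around the deletion were followed one by one. The annotation places *Nprl3* at 32175628 to 32217707 of chromosome 11 (mm39, minus strand). It had 13 and 32 reads at S1 and 1730 and 2069 at S3, or 9.82 and 20.9 normalized counts at S1 and 3279 and 3360 at S3, a log2 fold change of 7.72 ± 0.36 (adjusted p = 0.000221). The libraries therefore held very little *Nprl3* at S1 and over 200 times as much at S3 on average, on an allele without the promoter. These counts are over all exons of the gene and do not separate transcripts that start at the promoter from those that start inside the gene, where the α-globin enhancers lie. With a PCR assay specific to promoter-derived mRNA, the study found no detectable *Nprl3* mRNA in *Nprl3*-/- cells. It also states that spliced, polyadenylated transcripts from the enhancers do not code for protein. The rise is therefore no measure of functional *Nprl3* mRNA. *Mpg*, a DNA repair glycosylase whose gene overlaps *Nprl3* on the other strand (32176505 to 32182700), went from 268 and 235 to 1450 and 1351 (2.48 ± 0.19). Counting ignored strand, and by default reads lying over both genes are left out, so both are uncertain. *Rhbdf1* (32159585 to 32172300, minus strand) rose from 1.51 and 3.26 to 55.0 and 97.4 (4.91 ± 0.66) and *Snrnp25*, a spliceosome gene (32155415 to 32158984, plus strand), from 2060 and 1776 to 11307 and 8965 (2.40 ± 0.20). In the globin cluster *Hbq1b*, a θ-globin gene, went from 15.1 and 83.5 to 15167 and 12873 (8.13 ± 0.80), and its copy *Hbq1a* had 0 counts in both S1 libraries and 258 and 229 at S3, at least 230.7-fold higher against 3 counts. *Il9r* had 20.4 and 23.5 at S1 and 0 at S3, at least 8.41-fold lower. *Polr3k*, of RNA polymerase III, was listed with these genes but lies on chromosome 2 (181506130 to 181512623, plus strand). It had 4982 and 3831 counts at S1 and 4522 and 4426 at S3 (log2 fold change 0.02 ± 0.19, adjusted p = 0.927), and turned to −0.77 on library size alone. Of the 11 tested genes of the list, *Polr3k* included, 9 rose and 1 fell, where 22.6% and 30.3% of all genes tested did.

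The RefSeq promoter of *Nprl3*, at chr11:32267658-32267957 on the minus strand of GRCm38.p6, is shown because the allele deletes the promoter region, whose exact ends were not given in the sources used here.
Nprl3: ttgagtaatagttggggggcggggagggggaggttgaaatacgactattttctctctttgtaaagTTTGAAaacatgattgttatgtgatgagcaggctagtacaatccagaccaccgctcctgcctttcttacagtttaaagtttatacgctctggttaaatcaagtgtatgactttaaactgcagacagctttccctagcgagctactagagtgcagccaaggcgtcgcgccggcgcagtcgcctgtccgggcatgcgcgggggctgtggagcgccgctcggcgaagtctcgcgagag
Of the motifs searched it holds only 1 TTTGAA, in capitals, 185 bases before the start, which 17.9% of all promoters in the table hold.

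Beyond the lists, the largest rises at levels of 500 counts or more were partly in unnamed or noncoding genes. The unnamed gene ENSMUSG00000115968 (chromosome 16, 12529181 to 12529443) went from 1.51 and 1.305 to 1601 and 1668 counts, and the long noncoding RNA *Gm38619* nearby (12522232 to 12524604) from 0 and 9.13 to 3288 and 3551. *Bloodlinc*, a long noncoding RNA of red cells, was seen in 2 reads at S1 and 588 at S3 (ratio 734, 95% counting interval 202 to 6079). *Slfn14*, a ribosome-associated nuclease, rose from 17.4 and 62.0 to 10674 and 14500 (8.29 ± 0.64). *Fn3k*, which removes sugars bound to proteins such as haemoglobin, rose from 6.04 and 30.0 to 5151 and 6565 (8.30 ± 0.64). *Hsd3b6*, a steroid dehydrogenase, went from 4.53 and 16.96 to 5864 and 3874, *Apol11b* from 0.76 and 10.4 to 2162 and 2765 and *Cfap57* from 0.76 and 5.87 to 756 and 1200. *Gm867* and the noncoding RNA *Gm14862* had log2 fold changes of 8.62 ± 0.42 and 8.33 ± 0.73; without the S1 library of embryo 9 that of *Gm14862* was 12.7 and that of *Gm38619* 14.4.

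The largest falls were mostly in granule and marker genes of other blood lineages. *Mpo*, myeloperoxidase of neutrophil precursors, fell from 37777 and 39049 to 24.6 and 48.7 counts (−10.01 ± 0.38, adjusted p = 0.000221). *Elane* and *Prtn3*, their serine proteases, fell from 4580 and 3880 to 5.69 and 3.25 and from 3422 and 3758 to 1.90 and 8.12. *Ctsg* had 10261 counts over S1 and 1 over S3 (ratio 4108, 95% counting interval 737 to 162260). *Cpa3*, a mast cell protease, had 1969 and 1 (788, 141 to 31149), and *Hdc*, which makes histamine, fell from 2120 and 2191 to 1.90 and 8.12. *Ms4a3*, of granulocyte precursors, had 6914 and 3 (923, 316 to 4475). *Nkg7* had 3966 and 2, *Ear1* 1671 and 1, *Atp8b4* 1591 and 1, and *Hp* 2176 and 2. These transcripts were thus abundant in both S1 libraries and nearly absent from both S3 libraries. Summed over 11 neutrophil markers, normalized counts were 50126 and 52700 at S1 and 49.3 and 398 at S3. Of 10 tested members 7 fell, where 30.3% of all genes tested did. *Ltf* and *Ngp*, of mature neutrophils, were not called, and both turned to higher at S3 without the S1 library of embryo 9, with 7.49 and 5.88. The 8 mast cell and basophil markers summed to 3936 and 2932 at S1 and 17.1 and 27.6 at S3, and all 6 tested fell, 3 of them without embryo 2. Their median was −8.79, or −5.78 with *Prss34* and *Ms4a2*, at 0 in S3, set to the bound that 3 counts give; both lost their call without either embryo, and *Prss34* also in DESeq2 with the embryo as a block.

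Markers of other cells of the liver were measured at both stages. Over all genes tested, 22.6% rose and 30.3% fell (52.9% called), against which the counts of called markers are read. The 14 hepatoblast markers summed to 1249 and 5872 at S1 and 3131 and 7755 at S3, with embryo 9 the higher at both stages, and none of the 14 was called by edgeR, 1 by DESeq2, 8 with the embryo as a block and 10 without the S1 library of embryo 9. The 15 macrophage markers summed to 2163 and 2209 at S1 and 1150 and 749 at S3. Without *Lyz2* they summed to 513 and 768 at S1 and 1048 and 586 at S3, so the stages overlapped. Of the 12 tested 1 rose and 3 fell (33.3% called), and 9 had a log2 fold change above 0. The median was 1.303, or −0.14 without embryo 2 and 2.04 without embryo 9. *Lyz2*, which neutrophils share, fell from 1650 and 1441 to 102 and 162 counts (−3.54 ± 0.28). Depending on the library or embryo left out, 0 to 5 macrophage markers rose, and 1 fell without embryo 9. Megakaryocyte markers summed to 1316 and 2886 at S1 and 1882 and 3696 at S3, of which *Gp9* rose by 2.697 ± 0.35 and *Vwf* by 1.29 ± 0.28, a call lost on library size alone. With the embryo as a block 4 of these 9 rose and 4 fell, and 6 fell without the S3 library of embryo 9. Of 5 tested lymphoid markers 4 fell, 2 without embryo 2, from sums of 264 and 171 to 1.90 and 32.5, and of 7 endothelial markers 1, *Kdr*, rose, a call lost without embryo 2. *Cd79a* and *Igll1*, of B cells, had 0 counts in both S3 libraries. Of the 7 endothelial markers, 3 rose without the S1 library of embryo 9 and 3 fell without its S3 library. The part of these cells in the results above was not tested.

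Across the 13446 genes the change within embryo 2 and within embryo 9 agreed in sign for 90.2%, and the log counts of the embryos were correlated at r = 0.978 at S1 and 0.962 at S3, across genes of 2 libraries each. Among genes with a mean of at least 100 counts, the largest differences between the embryos' changes fell into 2 kinds. *Hba-x* and *Hbb-y* rose by 11.73 and 11.22 on the log2(count + 1) scale in embryo 2 and by 5.97 and 5.96 in embryo 9, where the S1 library already held them. *Fxyd5*, a membrane regulator, changed by −8.93 in embryo 2 and −2.79 in embryo 9, with S1 counts of 485 and 321 and S3 counts of 0 and 45.5. *Lsp1* and *Icam2*, of leucocytes and endothelium, changed by −7.78 and −8.73 in embryo 2 and by −2.24 and −3.34 in embryo 9. *S100a9*, of neutrophils, changed by −7.91 and −2.69, *Zbed3* by −7.998 and −2.61, and *Palm* by −8.18 and −3.04. In each of the last 6 the S3 library of embryo 9 held between 29.2 (*Zbed3*) and 66.6 (*Icam2*) counts of a gene with at most 1 read in that of embryo 2. *S100a9*, *Fxyd5* and *Lsp1* lost their call without embryo 2, and *S100a9*, *Fxyd5*, *Zbed3* and *Palm* lost it in DESeq2, the first 3 of them also in DESeq2 with the embryo as a block.

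**Figure D4:**
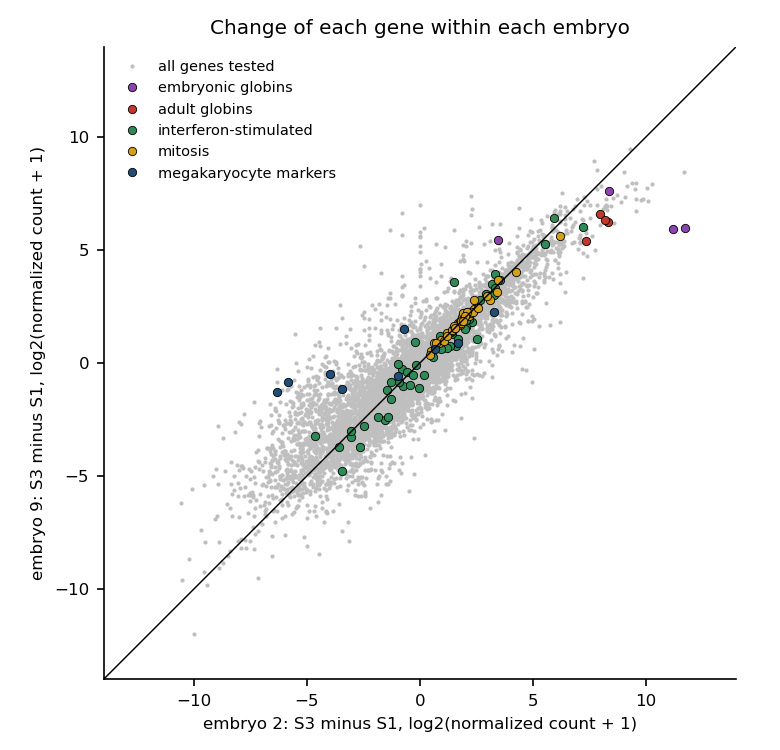
Change from S1 to S3 of each tested gene in embryo 2 (horizontal axis) and embryo 9 (vertical axis), as the difference of log2(normalized count + 1), with gene lists in colour and a line of equal change. Mitosis genes lie close to the line. Of the embryonic globins, *Hba-x* (11.73 and 5.97) and *Hbb-y* (11.22 and 5.96) lie far below it. *Hbb-bh1* (8.38 and 7.64) lies nearer to it, and *Hbb-bh2* (3.45 and 5.43) lies above it.

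The stage change was also set against that of the wild-type embryos, fitted in the same model of 12 libraries. Of 13485 genes tested, only *Nprl3* differed in its change between the genotypes at an adjusted p under 0.05 (0.00742% called by edgeR, with 399 genes at an unadjusted p under 0.05 and 12 called by DESeq2). Its normalized counts over these 12 libraries were 9.79 and 20.8 at S1 and 3269 and 3350 at S3 in *Nprl3*-/- embryos. In wild type they were 689, 738, 839 and 1024 at S1 and 4265, 4536, 5076 and 6285 at S3. The *Nprl3*-/- libraries thus lay far below all wild-type libraries at S1 and within 2-fold of them at S3. These counts over all exons are no measure of promoter-derived mRNA, which the study's PCR assay did not detect in *Nprl3*-/- cells. The log2 fold change was 7.73 ± 0.38 in *Nprl3*-/- and 2.61 ± 0.20 in wild type, a difference of 5.11 ± 0.39 (adjusted p = 0.000173). The next gene, *Ndrg2*, a stress-responsive gene, had 585 and 517 counts at S1 and 6695 and 5730 at S3 in *Nprl3*-/-, and 161 to 213 at S1 and 706 to 912 at S3 in wild type. Its change was 3.50 ± 0.21 and 2.07 ± 0.14, a difference of 1.42 ± 0.23 that did not pass (adjusted p = 0.347). *Plin2*, of lipid droplets, whose call between stages was lost on library size alone, had changes of 1.12 ± 0.16 in *Nprl3*-/- and 2.07 ± 0.12 in wild type (adjusted p of the difference 0.729). The wild-type S1 libraries were themselves unlike. *Alas2* had 668, 1025, 4202 and 6843 normalized counts in the 4 of them. In the same order of libraries, the neutrophil markers summed to 42097, 35539, 6247 and 3681. With 2 embryos of this genotype and this spread in wild type, differences that failed the test are not shown to be absent.

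**Figure D5:**
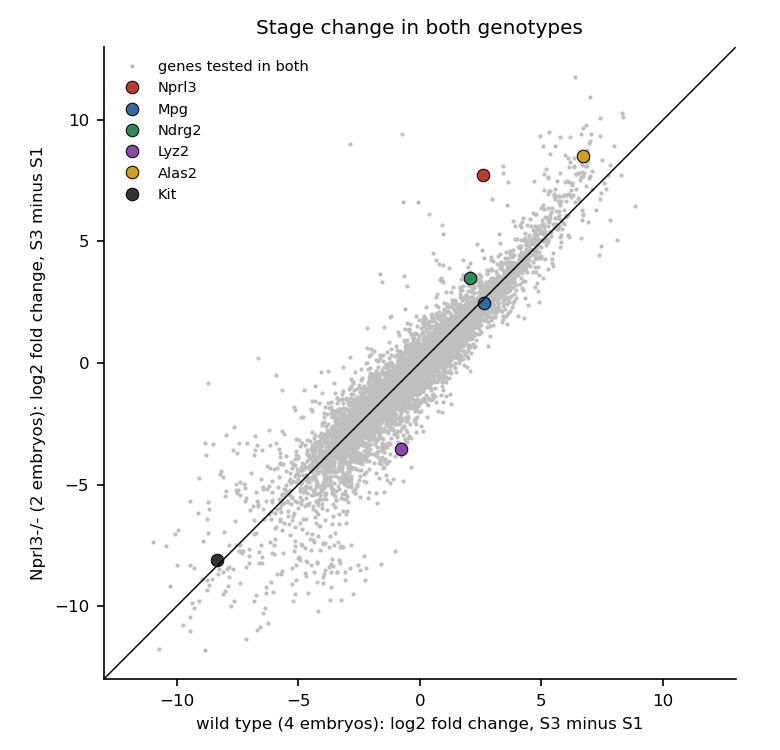
Log2 fold change of S3 over S1 in 4 wild-type embryos (horizontal axis) and in 2 *Nprl3*-/- embryos (vertical axis) for each gene tested in both, with a line of equal change. *Nprl3* (2.61 in wild type and 7.73 in *Nprl3*-/-) lies above the line and is the only gene whose difference was called; *Alas2*, *Kit*, *Mpg*, *Ndrg2* and *Lyz2* are marked and were not.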

How the data were processed

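Per the labels and the study's methods, the authors aligned polyadenylated, amplified RNA-seq reads to mm39 with STAR (v2.7.9) and counted them per gene with featureCounts (v1.6.4, paired, without strand) on the Ensembl gene annotation. They deposited raw counts of 55416 genes, and a symbol was found for 54749. The 4 library columns that match no sample were not used. Library totals were 21375730 to 32395199 counts.

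Groups were taken from the labels. S3 was tested against S1 over the 4 *Nprl3*-/- libraries with edgeR (4.0.16, quasi-likelihood, TMM, R 4.3.3), on genes with a mean normalized count above 10, with Benjamini-Hochberg adjustment at 0.05. The standard error is the absolute log2 fold change divided by the square root of the F statistic. The difference from wild type was the interaction over 12 libraries. Both stages came from the same animals, and the embryos' differences were correlated between stages (r = 0.38 across 13446 genes); the main design has no block. Alternatives were DESeq2 (1.42.0), the block, all 16 libraries, 4 scalings, 2 filters and leaving out each library or embryo. The fits were tested on simulated data. For genes with 1 to 3 counts in a stage, ratios carry exact 95% intervals, which cover counting error only, as no molecular identifiers are described; a gene at 0 was set to 3 counts over the stage.

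Named genes were the targeted gene and the genes listed with it, the 12 largest rises and falls at a mean of 500 counts or more, the extremes of each list with members that describe its steps, and the 8 largest differences between embryos. Members and lists were chosen with earlier results of these data known. *Ahsp*, on the lists, was not analysed here, and some other members are not reported here by name.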

Additional observations from a re-analysis of the deposited data

Results flagged for a closer look

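The change of *Nprl3* from S1 to S3 differed between genotypes, by the test of the interaction across 13485 genes: it was 7.73 in *Nprl3*-/- and 2.61 in wild type on the log2 scale, a difference of 5.11 ± 0.39 (SE, edgeR quasi-likelihood test, adjusted p = 0.000173). It was larger in both *Nprl3*-/- embryos, whose S1 libraries held 9.79 and 20.8 normalized counts against 689 to 1024 in the 4 wild-type embryos. All are counts over all exons, and the *Nprl3*-/- allele lacks the promoter.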

How the results depend on the processing

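Genes higher and lower at S3 numbered 3038 and 4070. On library size alone they were 1572 and 7117, a scaling that moved the median of all genes by −0.80. With the embryo as a replicate block, which is paired because both stages came from the same animal, they were 3946 and 5225, and 7107 of the 7108 genes were called in both, none in the opposite direction. DESeq2 called 3452 and 3578. Leaving out 1 library gave 2476 to 2919 higher and 3283 to 3983 lower, and leaving out 1 embryo 2425 to 2427 and 3013 to 3041; where 1 library was left in a stage it was assumed to vary like the others. Genes that differed from wild type in their change numbered 1, 12 in DESeq2 and 3 without a filter. Depth limits genes with few counts at S1 or S3, whose folds are given as bounds or counting intervals that cover counting error only. Among named genes not called on TMM, those called with the opposite sign on library size alone had log2 fold changes there of −0.77 for *Polr3k*, −0.39 for *Cdc20*, −0.66 for *Lamtor5*, −0.76 for *Armc8*, −0.68 for *Psph* and −0.76 for *Sod2*; *Clpx* (−0.42), *Mad2l1* (−0.29), *Sod1* (−0.46), *Depdc5* (−0.38), *Ireb2* (−0.67) and *Tet3* (−0.77) also turned negative there but were not called. Leaving out the S1 or the S3 library of embryo 9 gave 7.49 or −8.28 for *Ltf*, 5.88 or −9.73 for *Ngp* and 4.86 or −4.16 for *Ppbp*.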

Other observations

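Lipid synthesis genes, not described above, moved in both directions. *Fasn*, fatty acid synthase, fell from 783 and 1390 to 56.9 and 68.2 counts (−4.11 ± 0.37), the elongase *Elovl6* by 4.46 ± 0.25, the desaturases *Scd1* and *Scd2* by 3.06 and 3.14, and *Acaca*, which makes malonyl-CoA, by 2.71. In the sterol branch *Fdft1*, squalene synthase, rose from 1396 and 1310 to 4808 and 4587 (1.80 ± 0.15), while *Dhcr7*, of the last steps to cholesterol, fell by 2.66 ± 0.24. Of 32 tested genes 4 rose and 11 fell, where 22.6% and 30.3% of all genes did (median −0.28). Those that rose numbered 7 with the embryo as a block or after upper-quartile scaling and 2 without embryo 9, and on library size alone 1 rose and 24 fell.

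Central carbon enzymes changed in both directions. In the pentose phosphate pathway *Taldo1*, transaldolase, rose from 11260 and 8982 to 47534 and 37382 (2.07 ± 0.23) and *Pgd* fell by 1.41 ± 0.17, with 3 of 7 tested genes higher and 1 lower (57.1% called, beside 52.9% of all genes). In the citric acid cycle *Ogdh*, which makes succinyl-CoA, a substrate of haem synthesis, rose from 4243 and 4474 to 13952 and 15859 (1.77 ± 0.17). The next enzyme, which uses succinyl-CoA, fell in its subunits *Suclg1* by 1.29 ± 0.19 and *Suclg2* by 1.78 ± 0.21, and *Idh2* fell from 5351 and 4379 to 1382 and 1030 (−2.01 ± 0.22). Of 18 tested genes of the cycle 3 rose and 5 fell (44.4% called), and 1 rose without either S3 library or without either embryo. With the embryo as a block 8 fell, and on library size alone 1 rose and 14 fell, beside 1 and 4 of the pentose phosphate genes, 2 of which fell without the S1 library of embryo 9 or the S3 library of embryo 2.

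Transfer RNA synthetases, splicing factors and the proteasome had small list medians (−0.05, −0.24 and 0.37). Single members changed by more, and the counts of calls turned with the settings. Where 22.6% of all genes rose and 30.3% fell (52.9% called), 4 of 20 synthetases rose and 4 fell (40%), among them *Rars1* (−1.14 ± 0.17) and *Wars1* (−1.16 ± 0.17); on library size alone 13 fell and none rose by edgeR, with the embryo as a block 8 rose and 8 fell, after upper-quartile scaling 8 rose and 2 fell, and 2 fell without embryo 9. Of 27 splicing factors 4 rose and 7 fell (40.7% called). *Rbm38*, an erythroid splicing regulator, rose from 324 and 271 to 2574 and 2780 (3.17 ± 0.19), and *Hnrnpa1* fell from 74135 and 50401 to 18109 and 11626 (−2.07 ± 0.32). With the embryo as a block 15 splicing factors fell, after upper-quartile scaling 2 and on library size alone 19. Without the S3 library of embryo 9, 1 rose and 3 fell, 4 fell without the S3 library of embryo 2, 2 rose without the S1 library of embryo 9, and 2 fell without either embryo. Of 35 proteasome genes 11 rose (31.4% called), among them the activator subunit *Psme3* (1.47 ± 0.17); 20 rose and 6 fell with the embryo as a block, 17 rose in DESeq2, 4 rose and 2 fell without the S1 library of embryo 9 or the S3 library of embryo 2, 7 rose without either embryo, and 1 rose and 15 fell on library size alone. Of 11 transcripts encoded by the mitochondrial genome only *mt-Co1*, a subunit of cytochrome oxidase, was called (1.45 ± 0.23), a call that library size alone removed; with the embryo as a block 2 rose and 2 fell, and on library size alone 4 fell.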
